A study of Camellia sinensis with 8 samples.

Results

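The miRNA miR858 was represented by 5 of the 3511 miRNA probes of a microarray hybridized with RNA of tea plant (Camellia sinensis) leaves. These are all the probes whose name holds miR858 with no further digit after it. Each probe carries a sequence from another plant, since the miRBase part of the chip was built from known miRNAs: Arabidopsis thaliana (ath-miR858a and ath-miR858b), Arabidopsis lyrata (aly-miR858-3p), melon (cme-miR858) and apple (mdm-miR858). Of the 5 probes, 4 were detected on at least 1 array, among 295 detected probes in all. The miRNA was chosen by its role in flavonoid synthesis and by its log2 ratio of cold over control after 24 h in the cultivar YS, so the values of that comparison are given below as a description, with no test.

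The study asked how miRNAs of tea plant respond to cold. Leaf RNA of a cold-tolerant cultivar, YS (‘Yingshuang’), and a cold-sensitive cultivar, BY (‘Baiye 1’), was hybridized in a single colour (Cy3). In each cultivar 1 array held the control, kept at 28 °C for a time that the labels do not give. The others, 1 array each, held leaves kept for 4, 12 and 24 h at 4 °C. There was thus 1 array for each of the 8 conditions and no biological replicate, and the 4 repeat spots of a probe show only the spread within an array.

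In plants, a miRNA guides the cleavage or the translational repression of transcripts that pair with it along most of its length. In Arabidopsis miR858 targets transcripts of R2R3-MYB transcription factors, among them activators of flavonol synthesis. Flavonoids absorb ultraviolet light and act as antioxidants, and the catechins of tea leaf, which give the leaf its astringent taste, belong to them. No target transcript was measured on these arrays.

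The 5 sequences are shown because they decide what the probes can tell apart. They are written as the RNA each probe was designed for, from the 5′ to the 3′ end, as the array files give them, and capitals mark the seed, bases 2 to 8.
ath-miR858a: uUUCGUUGucuguucgaccuu
cme-miR858: uCUCGUUGucuguucgaccuu
ath-miR858b: uUCGUUGUcuguucgaccuug
mdm-miR858: uUCGUUGUcuguucgaccuga
aly-miR858-3p: gGUCGAGCagacaacgaagau

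All 5 sequences were 21 bases long, with a GC content of 42.9 to 52.4%. The first 4 belong to the same arm of the hairpin and shared a run of 18 bases, ucguugucuguucgaccu, which no other probe of the chip contained. ath-miR858b was ath-miR858a moved by 1 base, with no mismatch over the 20 bases in common. cme-miR858 differed from ath-miR858a by 1 substitution, U2C, counted from the 5′ end of ath-miR858a. mdm-miR858 had the seed of ath-miR858b and differed from it near the 3′ end, by U20G and G21A. Because of this shared run, 1 RNA species could bind all 4 probes, and the 4 signals are not independent measurements of miR858. Which tea plant RNA bound them was not tested. The paper's list of conserved miRNAs from its small RNA library of tea leaves does not hold miR858. Among the 283 probes made from tea plant sequences, the closest had 6 mismatches over 18 bases to a miR858 probe. Of all probes outside the family the nearest was ath-miR870 with 5 mismatches, and its signal did not exceed 9.52 on any array.

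aly-miR858-3p represents the opposite arm and holds a run of 11 bases that pairs exactly with ath-miR858a. Its normalized signal lay between -7.00 (YS, 12 h) and 7.98 (BY, 24 h), which is below the floor of 32 set for all signals. The opposite arm was therefore not measurable on any of the 8 arrays, and all further values concern the 4 other probes.

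The signals below are linear intensities after subtraction of the array background and a loess normalization between arrays, each with the standard deviation (SD) of the 4 repeat spots. A probe counted as detected on an array when its signal was above 500, above 3 background SD, and when the coefficient of variation (CV) of its spots was under 0.5. The signal of 1 probe is compared only between arrays, never with the signal of another probe.

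The signal of cme-miR858 in YS was 271 ± 17.5 (control), 330 ± 30.7 (4 h), 594 ± 75.6 (12 h) and 749 ± 76.5 (24 h), each with the SD of 4 spots. The BY signals were 299 ± 17.3 (control), 166 ± 15.2 (4 h), 242 ± 20.4 (12 h) and 222 ± 20.1 (24 h). The 3 cold arrays of YS were thus the 3 highest of the 8, the BY array at 4 h was the lowest, and the controls of the cultivars overlapped within their spot SDs. For this probe only the YS arrays at 12 and 24 h passed the detection rule.

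mdm-miR858, with the apple sequence, read 227 ± 44.8, 310 ± 29.0, 487 ± 40.4 and 623 ± 85.8 in YS at the control, 4, 12 and 24 h. In BY it read 246 ± 44.1, 141 ± 29.7, 209 ± 18.4 and 200.04 ± 33.2. The order of its 8 arrays was the same as that of cme-miR858. It was detected on the YS array at 24 h alone, and its signal at 12 h was just under the limit.

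ath-miR858a, one of the pair of Arabidopsis thaliana sequences, read 258 ± 27.0, 290 ± 45.9, 470 ± 51.1 and 625 ± 146 in YS. Its BY signals were 222 ± 48.0 (control), 91.1 ± 75.4 (4 h), 218 ± 26.6 (12 h) and 230 ± 15.2 (24 h). In BY the control and the arrays at 12 and 24 h differed by less than the spot SD. The array at 4 h was lower, but its spots ranged from 24.6 to 172, with a CV of 0.827. The probe was detected on the YS array at 24 h alone.

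ath-miR858b read 293 ± 33.3, 333 ± 32.8, 554 ± 67.9 and 574 ± 353 in YS. Its BY signals were 283 ± 41.3, 148 ± 35.0, 221 ± 37.7 and 254 ± 15.2. The large SD at 24 h in YS came from a single spot, which read 59.7 while the others read 636, 767 and 834. With a CV of 0.614 the probe did not count as detected on that array, and it was detected on the YS array at 12 h alone. Without the lowest spot the signal at 24 h was 746 ± 100.5, above the value at 12 h. The authors' table gives 781 for this probe and array, their normalized value.

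**Figure D1:**
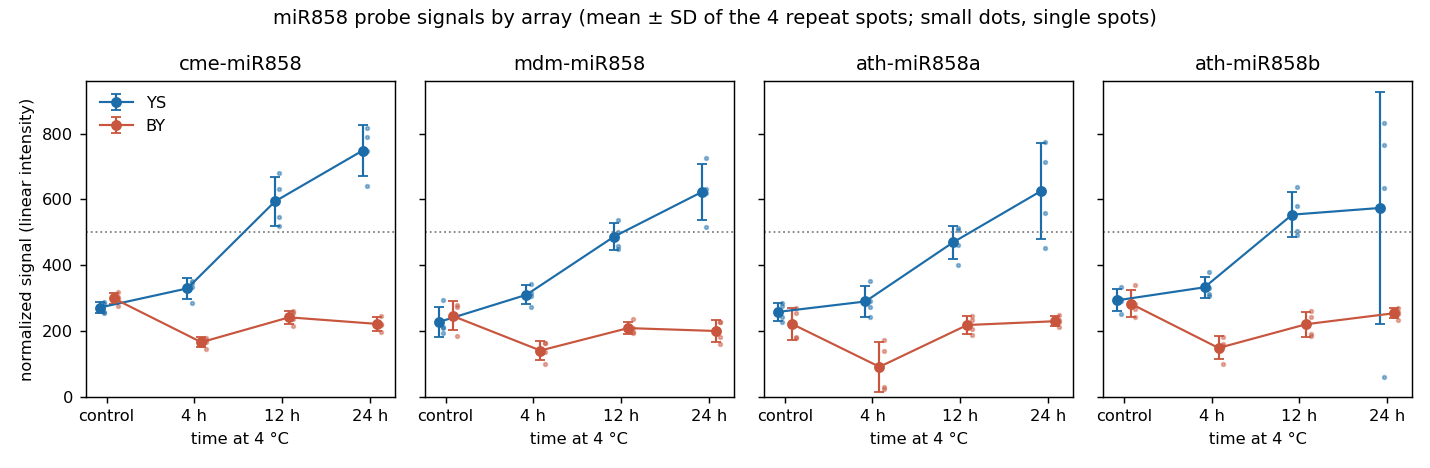
Normalized signal (linear intensity) of the 4 detected miR858 probes on the 8 arrays, YS in blue and BY in red. Circles and bars are the mean and SD of the 4 repeat spots, small dots the single spots, and the dotted line the detection limit of 500. In every panel the YS signal is highest at 24 h and the BY signal lowest at 4 h, and 1 low spot of ath-miR858b (59.7) widens the bar at 24 h in YS.

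In the order of the 8 levels, several neighbours could not be told apart within their spot SD. For cme-miR858 and mdm-miR858 the YS array at 24 h was above that at 12 h, and that at 12 h above that at 4 h, by more than the SDs. For ath-miR858a and ath-miR858b the 24 and 12 h arrays overlapped. The YS array at 4 h overlapped with the next lower array for every probe. The BY array at 4 h was lowest for all 4 probes, separated from the next for cme-miR858 and ath-miR858a and overlapping with it for mdm-miR858 and ath-miR858b. Over the 8 arrays the log2 signals of the 4 probes ran together, with Pearson's r between 0.94 and 0.996 for the 6 pairs. These pairs share the arrays, the normalization and the 18-base run.

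In YS the log2 ratio of cold over control at 24 h was 1.47 for cme-miR858, 1.45 for mdm-miR858, 1.28 for ath-miR858a and 0.97 for ath-miR858b. These correspond to 2.76, 2.74, 2.42 and 1.96 times the control signal. For cme-miR858, mdm-miR858 and ath-miR858a, each of the 4 spot positions was higher at 24 h than in the control. For ath-miR858b 3 of 4 positions were higher, and without its lowest spot the log2 ratio was 1.35. At 12 h the log2 ratios were 1.13, 1.10, 0.86 and 0.92 in the same order of probes, and each of the 4 positions was higher for every probe. At 4 h they were 0.28, 0.45, 0.17 and 0.18, with 3 of 4 positions higher for each probe.

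The median log2 ratio of the 4 probes in YS was 0.23, 1.01 and 1.37 at 4, 12 and 24 h. Over all 295 probes the medians were -0.12, -0.016 and -0.058. A fixed rule of size was used for counts, a log2 ratio above 1 or below -1 with detection on at least 1 of the 2 arrays. At 24 h in YS 4 of 246 eligible probes (1.63%) were higher by this rule. Of these, 3 were miR858 probes (cme-miR858, mdm-miR858 and ath-miR858a) and the other was osa-miR168b with a log2 ratio of 1.06, a probe for miR168, which targets the transcript of the miRNA effector ARGONAUTE1 in Arabidopsis. Since this comparison led to the choice of miR858, the count is only a description. Of the miR858 probes, ath-miR858a at 1.28 was nearest to the limit among those that passed. ath-miR858b, at 0.97, was detected on neither array and so was not eligible at any size. In the ranking of the 295 log2 ratios at 24 h in YS the miR858 probes took places 1, 2, 3 and 8.

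At 12 h in YS 1 miR858 probe, cme-miR858, was higher by the rule of size, where 7.2% of the eligible probes were higher. mdm-miR858 had a log2 ratio of 1.10 but was detected on neither array. At 4 h no miR858 probe was detected on either array, so none was eligible, and of the 237 eligible probes 0% were higher and 9.28% lower.

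In BY no miR858 probe was detected on any of the 4 arrays, so that none was eligible for the rule of size. The share of eligible probes past it was 0.444% higher and 0.889% lower at 4 h, 9.66% and 7.56% at 12 h, and 14.3% and 18.3% at 24 h. The signals were nevertheless well above background, whose SD was at most 3.08 on any array. At 4 h all 4 probes were lower than in the control, with log2 ratios of -0.85 for cme-miR858, -0.81 for mdm-miR858, -1.28 for ath-miR858a and -0.93 for ath-miR858b. All 4 spot positions were lower for each probe. At 12 h the log2 ratios were between -0.36 (ath-miR858b) and -0.024 (ath-miR858a), and at 24 h between -0.43 (cme-miR858) and 0.051 (ath-miR858a). Thus 3 of the 4 probes (all but ath-miR858a) were above the control at all 3 times in YS and below it at all 3 in BY, a course that 15.3% of the 295 probes had. The YS ratio at 24 h led to the choice of miR858, so part of this course was fixed in advance. Detection of the 4 probes on YS arrays alone also favours it. The medians in BY were -0.89, -0.27 and -0.23, against -0.087, -0.17 and -0.042 over all 295 probes.

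**Figure D2:**
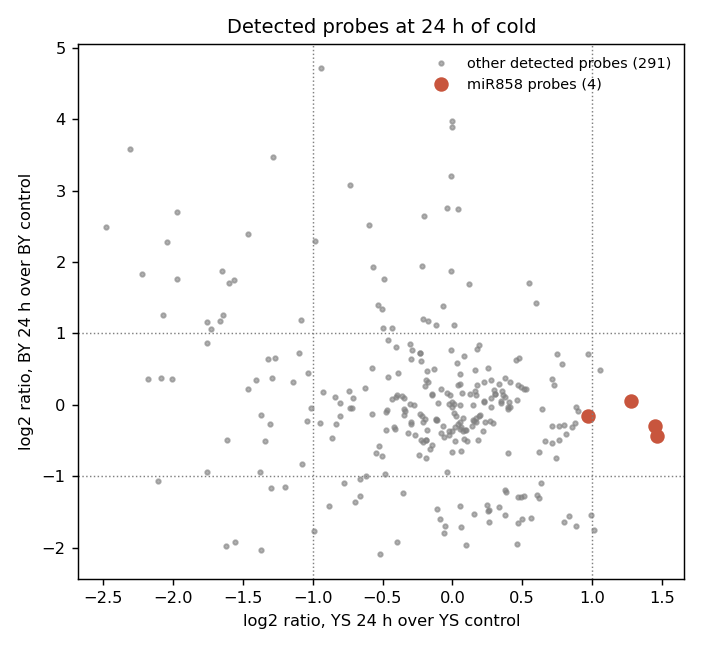
Log2 ratios of cold over control at 24 h for the 295 detected probes, YS on the horizontal and BY on the vertical axis. Each point is 1 probe, red points are the 4 miR858 probes, and dotted lines mark a log2 ratio of 1 or -1. The miR858 probes lie at the right edge, between 0.97 and 1.47 in YS, and between -0.43 and 0.051 in BY.

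The response of BY was compared in a model, although this comparison is not independent of the choice of miR858. The BY arrays played no part in that choice, but all 4 probes entered the 295 through YS arrays alone, and the YS arrays, that at 24 h included, enter the estimate of the spread. In a limma model over all 8 arrays, the cold arrays at 4, 12 and 24 h served as repeats of one another, and the single control array was taken to have the same spread. The log2 difference of cold minus control in BY was -0.53 (SE 0.49, 95% interval -1.72 to 0.66) for cme-miR858 and -0.45 (SE 0.44, -1.53 to 0.63) for mdm-miR858. It was -0.48 (SE 0.44, -1.56 to 0.59) for ath-miR858b and -0.42 (SE 0.65, -2.02 to 1.19) for ath-miR858a. No miR858 probe passed, with limma's adjusted p between 0.709 and 0.856 over the 295 probes. Of all 295 probes 0 passed (0%), and 30 had an unadjusted p under 0.05. The intervals include a fall to less than the control signal and a rise, so the direction over the 3 cold arrays of BY was not settled.

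The paired t-test over repeat spots that the methods used, which treats spots as replicates, called 3 miR858 probes in BY at 4 h and 1 each at 12 and 24 h, at the methods' threshold of 0.01. It called 14.2, 43.7 and 44.1% of all 295 probes at these times. After Benjamini-Hochberg adjustment it called 1, 1 and 0 miR858 probes, and 3, 75 and 83 of all 295 probes. This test sees only the spread within arrays.

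Between the cultivars, the controls differed little. The log2 difference of BY minus YS in the control was 0.14 for cme-miR858, 0.11 for mdm-miR858, -0.051 for ath-miR858b and -0.22 for ath-miR858a. In cold, the BY signal was lower for all 4 probes at each time, with median log2 differences of -1.15, -1.26 and -1.54 for the 3 times in turn. The difference was widest for cme-miR858 at 24 h, where YS read 3.38 times the BY signal. The YS control and the YS array at 24 h led to the choice of miR858, so the differences at these stages are only a description.

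The arrays at 4 and 12 h were compared between cultivars in a limma model with the time point as a block, 2 arrays against 2 and 1 residual degree of freedom. The log2 difference of BY minus YS was -1.14 (SE 0.26) for cme-miR858, -1.18 (SE 0.24) for mdm-miR858, -1.25 (SE 0.24) for ath-miR858b and -1.39 (SE 0.29) for ath-miR858a. The median over all 295 probes was 0.055. No miR858 probe passed, with limma's adjusted p between 0.109 and 0.113. Of the 295 probes 0 passed (0%), 73 had an unadjusted p under 0.05, and the lowest adjusted p was 0.0719. The detection rule favours a lower value in BY here, since each of the 4 probes was detected on YS arrays alone, cme-miR858 and ath-miR858b on the compared YS array at 12 h. With no signal threshold for detection limma's adjusted p was between 0.233 and 0.776. The differences are therefore given as a description. With each condition on a single array, cultivar and array cannot be told apart.

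These differences rest on how the arrays were made comparable. The mean log2 signal on the probes fitted by loess ranged from 10.89 (BY, 24 h) to 12.41 (YS, 4 h) before normalization. The mean unnormalized log2 signals of the 4 miR858 probes were 8.05 to 8.34, while the dimmest of the 130 fitted probes had 9.67. The miR858 probes therefore received the correction of the low end of each curve. On the log2 scale this correction was -0.040, 0.85, -0.75 and -0.023 in YS (control, 4, 12 and 24 h) and -0.13, -0.094, 0.99 and -0.64 in BY. It was nearly equal for the YS control and the YS array at 24 h, and for the BY control and the BY array at 4 h. It differed widely from the control for the YS arrays at 4 and 12 h and the BY arrays at 12 and 24 h.

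Accordingly, the ratio in YS at 24 h hardly moved without any normalization between arrays, with unnormalized log2 ratios of 1.48 for cme-miR858, 1.47 for mdm-miR858, 1.29 for ath-miR858a and 0.99 for ath-miR858b. The lower signal in BY at 4 h also stood without it, at log2 ratios of -0.82, -0.77, -1.25 and -0.90 in the same order. At 4 h in YS the unnormalized log2 ratios were larger than the normalized ones, between 1.05 (ath-miR858a) and 1.33 (mdm-miR858). All 4 probes then passed the rule of size. The unnormalized median over all detected probes was itself 0.63 there, and their share past the rule in this setting is not given here. At 24 h in BY the unnormalized miR858 ratios were lower, between -0.94 (cme-miR858) and -0.46 (ath-miR858a), where the median over all detected probes was -0.84. At 12 h in YS the unnormalized log2 ratios were only 0.42, 0.39, 0.15 and 0.21, and at 12 h in BY they were above 0, at 0.81, 0.88, 1.09 and 0.76. At 12 h the unnormalized signal was then higher in BY than in YS, by log2 differences of 0.41 to 0.63, the opposite of the normalized comparison. Over all detected probes the median unnormalized log2 ratio at 12 h was 0.64 in BY and -0.27 in YS. The miR858 median was above it by 0.21 in BY and by 0.57 in YS. With 1 factor per array in place of a curve, the median difference of BY minus YS at 12 h was -0.069. At 4 h and at 24 h BY was lower than YS in the median under each of the 10 other ways of processing, by log2 differences between -1.15 and -2.09 at 4 h and between -1.07 and -2.15 at 24 h. Of these ways, the lower floor and the missing signal threshold leave the values as they are. The YS array at 24 h led to the choice of miR858, so the differences at 24 h are only a description.

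**Figure D3:**
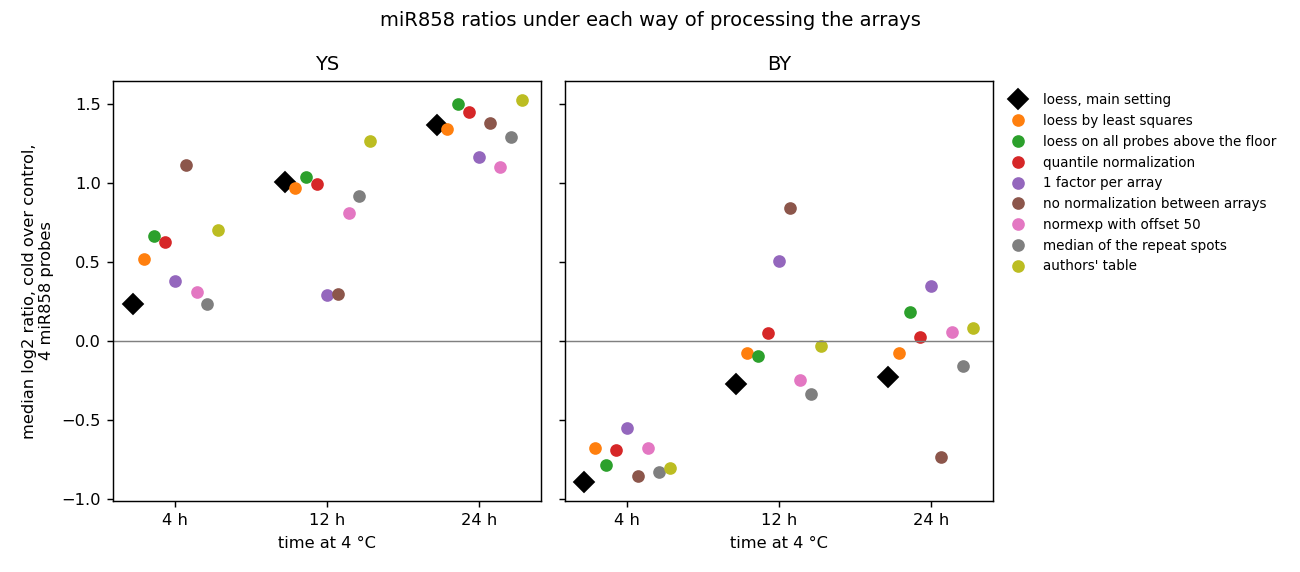
Median log2 ratio of cold over control of the 4 miR858 probes at 4, 12 and 24 h in YS (left) and BY (right), each symbol a way of processing the arrays, black diamonds the values reported here. In YS at 24 h the medians lie between 1.10 and 1.53 and in BY at 4 h between -0.89 and -0.55, while at 12 h they spread from 0.29 to 1.27 in YS and from -0.34 to 0.85 in BY.

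Spiked control oligonucleotides also differed between arrays. The median log2 ratio of the control spots named M over those named P was -1.15 to -1.49 on the BY arrays and -1.83, -1.80, -3.86 and -2.98 on the YS arrays (control, 4, 12 and 24 h). What these names stand for is not given in the sources used here. The YS arrays at 12 and 24 h, where miR858 was highest, were thus also the 2 lowest in this ratio, and its part in the miR858 signals was not tested.

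Among the 291 detected probes outside the family, the courses most like that of miR858 over the 8 arrays were those of mdm-miR164a (Pearson's r 0.92 with the mean log2 signal of the 4 miR858 probes), tcc-miR167c_R+1_1ss21TG (0.90), nta-miR6149a (0.90), osa-miR164e (0.89) and gma-miR164b (0.88). The median r of the 291 probes was -0.069. Of these 5 probes 3 belong to miR164, which targets NAC transcription factors in Arabidopsis, and 1 to miR167, which targets auxin response factors there. The 3 miR164 probes are of 1 family and may bind the same RNA, so they may not be independent measurements. osa-miR164e read 601, 641, 1315 and 1047 in YS and 269, 182, 174 and 221 in BY. It differed from miR858 in that its YS signal was highest at 12 h and that its controls were far apart. nta-miR6149a moved over a narrow range, from 427 in the YS control to 680 at 12 h, and from 354 to 380 in BY.

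The other miRNA families with roles near that of miR858 were examined by the same rule of size. miR828, which in Arabidopsis targets MYB activators of anthocyanin synthesis, had 5 probes, none of them detected, and the highest signal of any was 17.9. The other miRNA family best known for repressing MYB activators of flavonoid synthesis was thus below the floor of 32 on every array. miR159, which targets GAMYB-like transcripts, had 28 detected probes of 44. Its median log2 ratios stayed between -0.26 and 0.032 in both cultivars. In YS 4 of its probes passed the rule of size at some time. At 12 h 2 were higher and 2 lower (7.2% and 12.4% of all eligible probes), and at 24 h 2 were lower (11.4%). None passed in BY, where 14.3% of all eligible probes were higher and 18.3% lower at 24 h. Its brightest probe, ath-miR159b, read 4646 in the YS control and 4287 at 24 h, a log2 ratio of -0.12.

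miR319, a regulator of TCP transcription factors, had 13 detected probes of 33, of which 3 were lower in YS at 12 h and 3 at 24 h, where 12.4% and 11.4% of all eligible probes were lower. In BY 1 was higher and 1 lower at 24 h, where 14.3% and 18.3% of all eligible probes were. vvi-miR319g read 2280 ± 197 in the YS control and 1032 ± 203 at 24 h, a log2 ratio of -1.14, and read 2722 and 3399 in BY at these stages. miR156 and miR157, whose SPL9 target also represses anthocyanin genes in Arabidopsis, had 24 detected probes of 72. None passed in YS, and 1, osa-miR156c-3p, was higher in BY with a log2 ratio of 1.03 at 12 h and 1.70 at 24 h, where 9.66% and 14.3% of all eligible probes were higher.

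Of the laccase regulators of lignin synthesis, a branch that competes with flavonoids for precursors, miR397 had no detected probe among 18, with a highest signal of 62.3. miR408 had 6 detected probes of 22. In YS 5 of them were lower at 4 h and 4 were higher at 12 h, where 9.28% and 7.2% of all eligible probes were. sof-miR408e read 1666 ± 280 in the YS control, 541 ± 71.4 (4 h), 3773 ± 384 (12 h) and 1659 ± 321 (24 h). Its signal thus returned to that of the control at 24 h, the time at which miR858 was highest. In BY it read 10.3, 68.4, 71.1 and 295, below the detection limit throughout. None of the tested probes passed either limma test, those of miR159, miR319, miR156, miR157 and miR408 included.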

How the data were processed

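The authors hybridized 8 single-colour Cy3 microarrays and deposited the scanner output, the median intensity of each spot with no background subtracted, and a table of normalized intensity values, which per the methods were background-subtracted and scaled by locally weighted regression. The scanner output was used here. The median of 146 empty spots was subtracted per array and the 4 spots of a probe averaged. A loess curve (span 0.7, degree 1) against the mean of the 8 arrays was fitted on 130 probes detected on all arrays, and the end of the curve was extended to dimmer probes. Signals under 32 were set to 32 before log2. Tests used limma 3.58.1 in R 4.3.3 with Benjamini-Hochberg adjustment over 295 probes at 0.05, and the scripts were tested on simulated data. Figures used Python 3.11.15 and matplotlib 3.10.9. The number of arrays limits the precision.

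The miR858 probes and the lists of related families were chosen with earlier results of these data known. Named besides miR858 were the 5 probes with the most similar course, the nearest in sequence, and, of each related family, the brightest detected probe and up to 3 past the rule of size. Alternatives covered normalization, background, spot summary, floor, detection limit and the authors' table, whose log2 values correlated with the unnormalized signals (r 0.982 to 0.999).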

Additional observations from a re-analysis of the deposited data

Results flagged for a closer look

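In 3 of the 4 detected miR858 probes every cold array of YS was above its control and every cold array of BY below its control. In the order 4, 12, 24 h, cme-miR858 had log2 ratios of 0.28, 1.13, 1.47 (YS) and -0.85, -0.31, -0.43 (BY). mdm-miR858 had 0.45, 1.10, 1.45 (YS) and -0.81, -0.23, -0.30 (BY), and ath-miR858b had 0.18, 0.92, 0.97 (YS) and -0.93, -0.36, -0.16 (BY). The difference between the cultivars' responses was not tested, and 15.3% of the 295 detected probes had the same opposite course. Part of this course was fixed in advance, since miR858 was chosen for its YS ratio at 24 h. Detection of its probes on YS arrays alone also favours it, so the count is only a description. ath-miR858a was the exception, with 0.051 in BY at 24 h. The 3 probes kept the opposite course under 4 of 10 other settings, among them the lower floor and the missing signal threshold, which leave these values as they are.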

How the results depend on the processing

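The median log2 ratio of the 4 miR858 probes in YS at 24 h stayed between 1.10 and 1.53 over 12 settings, and in BY at 4 h between -0.89 and -0.55 over 11. The lower floor and the missing signal threshold, counted among them, leave these values as they are. The YS ratio at 24 h led to the choice of miR858, so its range is only a description. For the other times the cause of the changes was not tested. Under the authors' table the median was 0.70 (YS 4 h), 1.27 (YS 12 h), -0.031 (BY 12 h) and 0.081 (BY 24 h). Without normalization between arrays it was 1.12 (YS 4 h), 0.30 (YS 12 h), 0.85 (BY 12 h) and -0.73 (BY 24 h). The medians over all detected probes were then 0.63, -0.27, 0.64 and -0.84 in the same order. With 1 factor per array the miR858 median was 0.29 (YS 12 h), 0.51 (BY 12 h) and 0.35 (BY 24 h), against -0.30, 0.15 and 0.20 over all detected probes. Quantile normalization gave 0.63 (YS 4 h), 0.052 (BY 12 h) and 0.027 (BY 24 h), and normexp 0.057 (BY 24 h). After the data were seen, 2 further loess fits were added. A fit by least squares gave -0.076 (BY 12 h), and a fit on all probes above the floor 0.67 (YS 4 h), -0.096 (BY 12 h) and 0.18 (BY 24 h). The planned loess on all probes was not run, since most probes at background have equal values and the curve could not be fitted.

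Of the miR858 probes 3 passed the rule of size in YS at 24 h under each alternative, and 4 when the lowest spot of ath-miR858b was left out, also chosen after the data were seen. In YS at 12 h 4 passed with the authors' table, 2 with no signal threshold and 0 with 1 factor per array, without normalization or with normexp. In YS at 4 h 4 passed without normalization, and in BY at 4 h 1 passed with no signal threshold. The share of all probes past the rule under each alternative is not given here, so these counts are only a description. In YS at 12 h the median log2 ratio over all detected probes was 0.14 with the authors' table and -0.30 with 1 factor per array.

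For BY against YS at 4 and 12 h, the authors' table gave log2 differences of -1.57 (limma's adjusted p 0.0354) for cme-miR858, -1.66 (0.0335) for mdm-miR858 and -1.70 (0.0335) for ath-miR858b. In this setting 3 miR858 probes of 43 in all passed, in a comparison that their detection on YS arrays favours. It was the only setting in which any miR858 probe passed. Of all probes 35 passed with least-squares loess, 35 with normexp, 47 with the median of the spots and 14 with no block for the time point. In each of these settings 0 miR858 probes passed. The share of tested probes that passed is not given here, so these counts are only a description. For BY cold against control 15 probes passed with no signal threshold, 0 to 13 when 1 time point was left out (13 without the 4 h arrays), and 42, 129 and 130 by the methods' t-test at 4, 12 and 24 h, with 3, 1 and 1 miR858 probes. The sign turned with 1 factor per array for ath-miR858a (0.15), cme-miR858 (0.035) and mdm-miR858 (0.12), the 3 miR858 probes detected in that setting. There ath-miR858b was not detected and so was not tested. For ath-miR858a the sign also turned when 1 time point was left out, from -0.65 to 0.013 (without the 4 h arrays). With no signal threshold many probes stand at the floor, where limma's estimate of the spread is unreliable.

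Of the 5 probes most like miR858, 3 stayed among the 5 with Spearman's rho, quantile normalization, loess on all probes above the floor, the median of the spots and no signal threshold, 2 with 1 factor per array, and 1 with the authors' table or without normalization. No paired analysis was possible because the labels give no replicate numbers that pair arrays, and the cultivars were blocked by time point only.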
